A study of Drosophila melanogaster with 4 samples.

Results

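Transposon RNA was compared between ovaries of *Drosophila melanogaster* in which *vreteno* was knocked down in the somatic cells (genotype Tj-GAL4>vretenoGD) and control ovaries with a hairpin against *arrestin2* (Tj-GAL4>arrestin2GD). These 2 libraries were chosen by the genotype in the labels, out of 4 in the series; the other two come from a cultured cell line. Poly(A) RNA was sequenced directly as long nanopore reads. Both genotypes carry the tj-GAL4 driver, so they share the driver and the expression of a hairpin and differ in its target. Flies were kept at 25 °C with 12 h of light, and whole ovaries were dissected and frozen. The sources used here give neither fly age nor the number of flies pooled. The driver is active in somatic cells of the gonad, which leaves *vreteno* in the germline of the same ovaries untouched by the hairpin, and each library mixes RNA of both. Of 150 sequences in the files, 26 (satellites, rDNA spacer, Stellate and other non-transposon entries) were left out and 124 transposons were kept.

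Retrotransposons of the Ty3/gypsy type can produce virus-like particles, and the members of the gypsy group include endogenous retroviruses, whose envelope (env) gene encodes a protein of the kind that lets retroviruses enter cells. Somatic cells of the fly ovary hold such elements down with piRNAs, small RNAs that guide the protein Piwi to matching transcripts and that come largely from the *flamenco* locus. Vreteno carries Tudor domains and takes part in piRNA production, and Arrestin2 is a photoreceptor protein that ends rhodopsin signalling. On the fly assembly BDGP6 the gene *vret* lies on chromosome 3R at 22742954 to 22745581 on the minus strand, and *Arr2* on 3L at 8647261 to 8648936 on the minus strand. The series concerns transfer of retrotransposons between cells, and the ovary pair asks which transposon RNAs are present once somatic silencing is reduced.

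The knockdown library held 5156 transposon reads and the control library 2382. In the knockdown 88 transposons had a read, against 98 in the control. An element without a read could still make up 0.0582% of transposon reads in the knockdown and 0.126% in the control, the share that 3 reads would be. Reads from non-transposon entries numbered 245 in the knockdown and 406 in the control. The full depth of either library is unknown, because only reads on these sequences are in the files. Reads of the knockdown were therefore divided by 0.903, the median ratio of knockdown to control over 30 transposons that reached 10 reads in each library (95% interval of the median 0.761 to 1.07). Each genotype has 1 library, so no test between conditions was possible. All intervals below are exact 95% intervals for counting error, and they compare these libraries only. The files hold no gene, so neither the level of *vreteno* nor markers of soma and germline were checked. Fewer cells of a type and less RNA per cell cannot be told apart in whole ovaries.

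A minimum of 10 reads in either library was met by 45 transposons, of which 12 were at least 4-fold higher in knockdown ovaries, which is 26.7% of those tested, and 0 were at least 4-fold lower (0.0%). The 4-fold rule was applied to the log2 ratio of scaled reads with a pseudocount of 1 read. The 12 were 5 endogenous retroviruses of the gypsy group, 5 elements of the mdg1 group, the Ty3/gypsy element HMS-Beagle2 and the DNA transposon Transib1. Gypsy6 lay just inside the rule with a log2 ratio of 2.01, and '412' just outside it with 1.97. Of the 12, 9 had under 10 control reads and so entered only through the knockdown library. The counting interval of the fold lay above 1 for 19 of the 45 (42.2%) and below 1 for 1 of them (2.22%), the DNA transposon pogo. Over all 45 the median log2 ratio was 0.26.

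**Figure D1:**
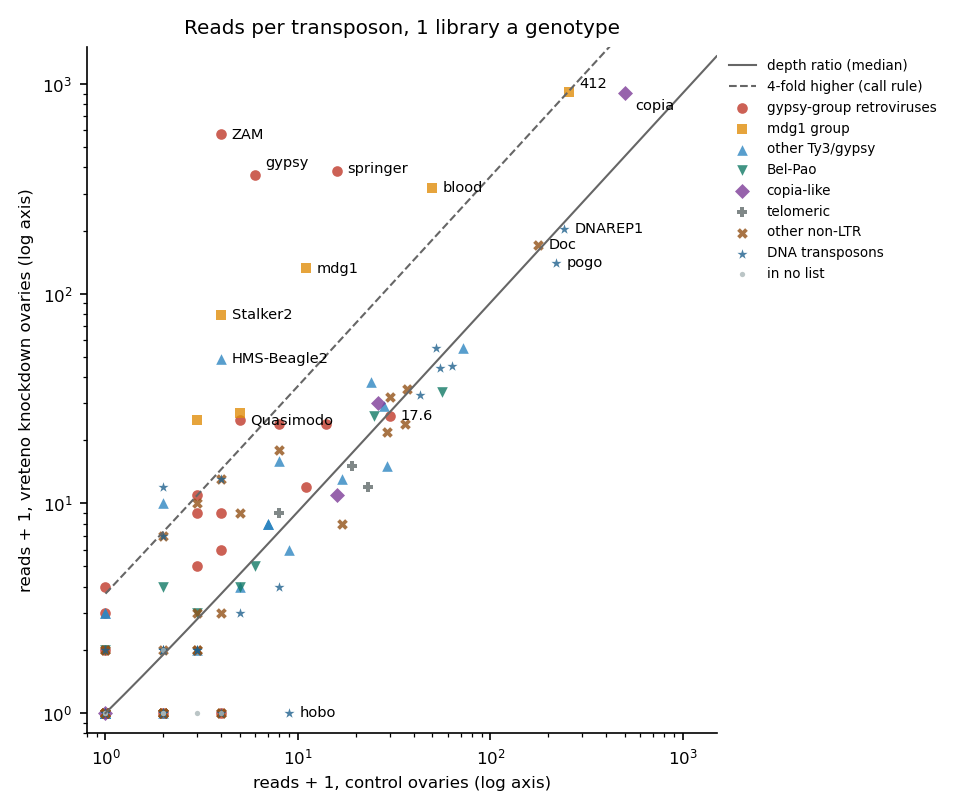
Reads plus 1 of each of the 124 transposons in vreteno knockdown ovaries (vertical log axis) and in control ovaries (horizontal log axis), 1 library each, with symbols for the list an element belongs to. The solid line marks the ratio of 0.903 used for scaling and the dashed line the 4-fold rule; ZAM, gypsy and springer lie far above the dashed line, while Doc, DNAREP1 and pogo lie close to the solid one.

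The make-up of the transposon RNA differed between the libraries. Endogenous retroviruses of the gypsy group supplied 28.5% of transposon reads in the knockdown (27.3 to 29.8) and 4.28% in the control (3.50 to 5.17). The mdg1 group, Ty3/gypsy elements that include '412' and blood, supplied 28.8% (27.6 to 30.1) and 13.6% (12.2 to 15.0). These shares need no scaling between libraries, but they sum to 100% in each, so a higher share of 1 list lowers the others. DNA transposons made up 10.8% of reads in the knockdown (9.93 to 11.6) and 29.6% in the control (27.8 to 31.5), and non-LTR elements other than the telomeric ones 6.73% (6.06 to 7.45) and 15.0% (13.6 to 16.5). Summed and scaled, the DNA transposons were at a fold of 0.872 (0.778 to 0.975) and these non-LTR elements at 1.07 (0.923 to 1.25), with 555 reads in the knockdown and 705 in the control for DNA transposons, and 347 and 358 for non-LTR elements. Scaled to total transposon reads these folds were 0.364 and 0.448, and scaled to non-transposon reads 1.305 and 1.61. In both libraries 4 elements together held over 50% of the transposon reads. In the knockdown they were '412' (910 reads), copia (903), ZAM (573) and springer (383). In the control they were copia (498), '412' (256), the short repeat DNAREP1 (240) and pogo (218).

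**Figure D2:**
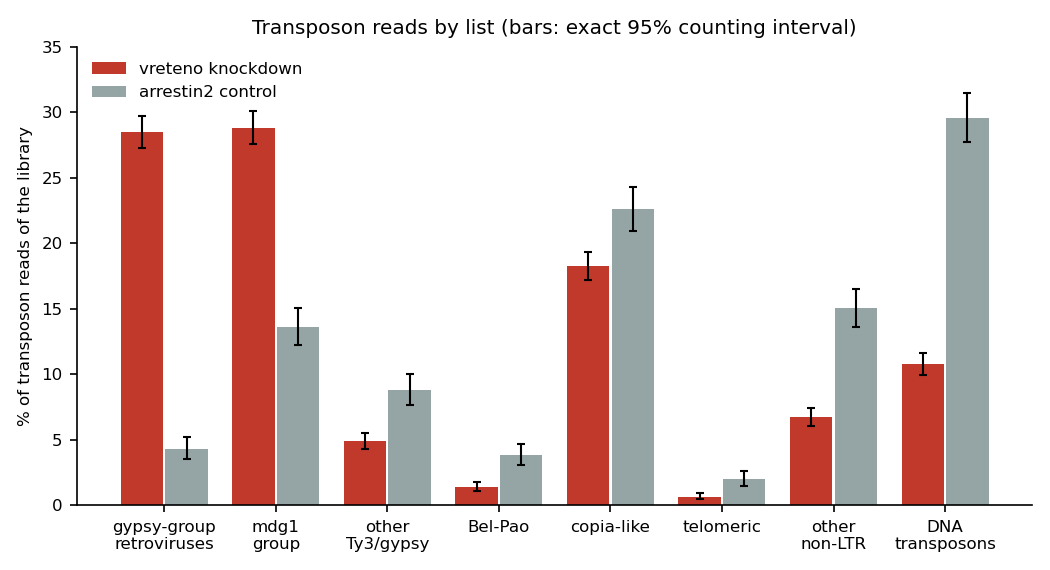
Share of transposon reads (vertical axis, percent) of 8 lists of transposons, with vreteno knockdown ovaries in red left of control ovaries in grey; error bars are exact 95% counting intervals. The gypsy-group retroviruses stand at 28.5% in the knockdown and 4.28% in the control, and the DNA transposons at 10.8% and 29.6%.

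After scaling, the knockdown library held 3326 transposon reads more than the control, and 6 elements made up 90.1% of that excess. They were '412' with 22.6%, ZAM with 18.98%, copia with 15.1%, springer with 12.3%, gypsy with 12.1% and blood with 9.08%. Without scaling the same 6 supplied 2627 of 2774 additional reads (94.7%). The total excess depends on the scaling. It was 6162 reads with non-transposon reads and 3694 with the non-LTR and DNA lists, the 6 elements made up 79.5% and 87.8% of it, and it is 0 by construction with total transposon reads. Copia is in this list only where its fold is above 1, and without copia the other 5 made up 88.3% of an excess of 2825 reads. All transposons outside the gypsy group, the mdg1 group and copia together had 1297 reads in the knockdown and 1458 in the control, a fold of 0.985. Of the 30 transposons that set the scaling 22 are among them.

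The 18 elements listed as gypsy-group retroviruses fell into a few with very many reads and many with a handful. ZAM, a retrovirus of the follicle cells under control of *flamenco*, had 573 reads in the knockdown and 3 in the control. Its fold was 211 (72.0 to 1028). Gypsy, whose particles were the first shown to be infectious in flies, had 367 and 5 reads (81.3-fold, 34.5 to 252). Springer had 383 and 15 reads (28.3-fold, 16.9 to 51.0). These 3 supplied 1323 of the 1470 reads of the list in the knockdown, against 23 of 102 in the control, where '17.6' had the most reads of the list, 29. In the ranking of all 124 elements by reads, ZAM stood at rank 3 in the knockdown and 50 in the control, springer at 4 and 27, and gypsy at 5 and 42.

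The remaining retroviruses gave far fewer reads. Quasimodo had 24 in the knockdown and 4 in the control (6.64-fold, 2.28 to 26.3), gypsy6 had 10 and 2 (5.54-fold, 1.18 to 52.0) and rover had 23 and 7 (3.64-fold, 1.51 to 10.04). The sister elements '297' and '17.6' were both within counting error of no change, with 23 and 13 reads for '297' (fold 1.959, 0.952 to 4.21) and 25 and 29 for '17.6' (fold 0.954, 0.536 to 1.69). Opus had 11 and 10 reads (fold 1.22, 0.470 to 3.20). The other 9 members stayed below the minimum: Pifo with 8 and 2 reads, gtwin with 8 and 3, Idefix with 5 and 3, gypsy4 with 4 and 2, gypsy5 with 3 and 0, gypsy3 with 2 and 0, gypsy10 with 1 and 0, Tirant with 0 and 1 and gypsy2 with 0 and 3. Idefix, like ZAM a known target of *flamenco*, therefore showed no difference detectable at this depth (fold 1.85, 0.359 to 11.9). Of the 18 members 9 passed the minimum, and over all lists 12 of the 45 tested elements (26.7%) met the 4-fold rule. Of these 9 members, 5 met it. ZAM, gypsy, Quasimodo and gypsy6 among them, and also rover, reached the minimum only through the knockdown library, where they were high, so the count is a description and no support for the list. Only ZAM, gypsy and springer of this list had intervals above 1 under each of the 5 scalings tried.

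All 6 members of the mdg1 group passed the minimum and had intervals above 1 under each of these scalings. Over all lists, 10 of the 45 tested elements did so, these 6 included. Stalker, Stalker2 and Tabor reached the minimum only through the knockdown library, where they were high. The count and the median of the group are therefore a description and no support for the list. Their median log2 ratio was 3.01, beside 0.26 over all 45. The element mdg1 had 131 reads in the knockdown and 10 in the control (14.5-fold, 7.64 to 30.95), blood had 317 and 49 (7.16-fold, 5.29 to 9.89) and Stalker2 had 78 and 3 (28.8-fold, 9.49 to 143). Stalker had 26 and 4 reads (7.20-fold, 2.50 to 28.4), and Tabor had 24 and 2 (13.3-fold, 3.30 to 116). The most abundant member, '412', had 910 and 256 reads (3.94-fold, 3.42 to 4.54). It was also the member with the highest control level, at 10.7% of all control transposon reads, and the group without it had 576 and 68 reads.

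**Figure D3:**
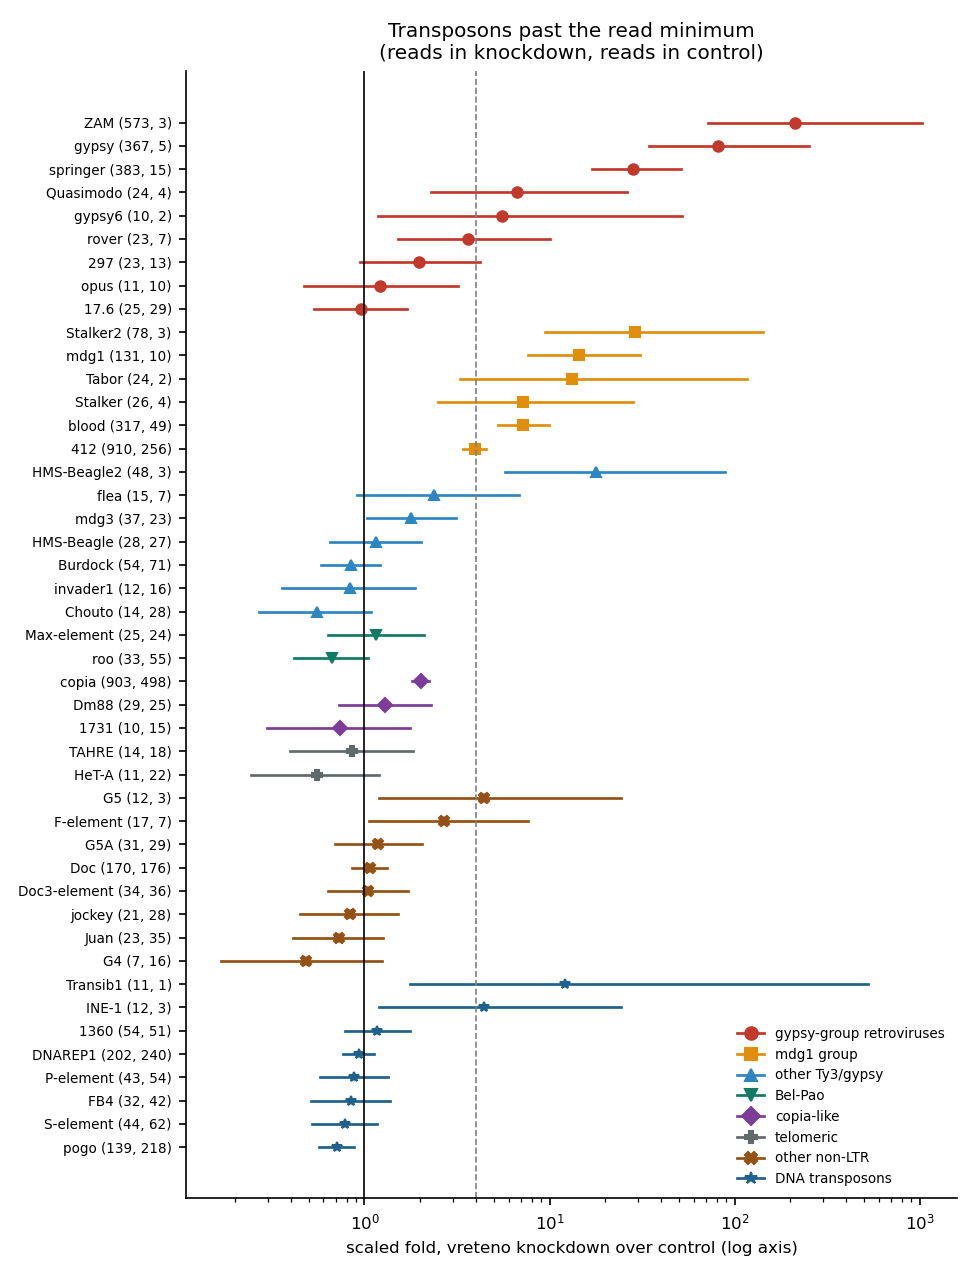
Scaled fold of knockdown over control (log axis) with exact 95% counting intervals for the 45 transposons past the read minimum, ordered by list, with reads in knockdown and then in control after each name. The solid line marks no change and the dashed line 4-fold; the intervals of all 6 mdg1-group elements lie to the right of 1, and most elements of the lists below them cross it.

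Among the other Ty3/gypsy elements, 24 were listed, 7 passed the minimum and 1 was at least 4-fold higher, beside 12 of all 45 tested (26.7%). HMS-Beagle2 had 48 reads in the knockdown and 3 in the control (17.7-fold, 5.71 to 88.9), whereas its namesake HMS-Beagle had 28 and 27 (fold 1.15, 0.652 to 2.02). HMS-Beagle2 reached the minimum only through the knockdown library, where it was high, and HMS-Beagle reached it in both. Flea had 15 and 7 reads (fold 2.37, 0.910 to 6.88) and mdg3 had 37 and 23 (fold 1.78, 1.03 to 3.14). Burdock, which is known as a germline target of piRNAs, had 54 and 71 reads (fold 0.842, 0.580 to 1.22). Chouto had 14 and 28 (fold 0.554, 0.269 to 1.09), and invader1 had 12 and 16 (fold 0.830).

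Copia, an LTR element of a separate family, had 903 reads in the knockdown and 498 in the control, a fold of 2.01 (1.80 to 2.24). This direction rests on the scaling, since its log2 ratio was -0.25 after scaling to all transposon reads. As a share of transposon reads copia was lower in the knockdown, at 17.5% (16.5 to 18.6) against 20.9% (19.3 to 22.6). Its relatives Dm88 (29 and 25 reads) and '1731' (10 and 15 reads) had folds of 1.28 (0.726 to 2.29) and 0.738 (0.297 to 1.76). In the Bel-Pao list roo had 33 and 55 reads (fold 0.664, 0.418 to 1.04) and the Max-element 25 and 24 (fold 1.15). The telomeric retrotransposons, which extend chromosome ends in flies, gave 33 reads in the knockdown and 47 in the control, with HeT-A at 11 and 22 and TAHRE at 14 and 18.

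Of the 30 transposons that set the scaling, 11 are non-LTR elements or DNA transposons, so folds near 1 for them follow in part from it. Of 8 non-LTR elements past the minimum, 0 passed the 4-fold rule, beside 12 of all 45 tested elements (26.7%). With 8 elements this count is a description only. Doc, a non-LTR element that moves by target-primed reverse transcription, had 170 and 176 reads (fold 1.07, 0.861 to 1.33), Doc3 had 34 and 36, G5A had 31 and 29, jockey had 21 and 28 and Juan had 23 and 35. The F-element had 17 and 7 reads (fold 2.69, 1.06 to 7.67), G5 had 12 and 3 (fold 4.43, 1.20 to 24.5) and G4 had 7 and 16 (fold 0.484, 0.169 to 1.24). With the pseudocount the log2 ratio of G5 was 1.84, so G5 missed the 4-fold rule. Neither the F-element nor G5 had an interval above 1 after scaling to all transposon reads.

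Of 8 DNA transposons past the minimum, Transib1 alone passed the 4-fold rule, beside 12 of all 45 tested elements (26.7%). It had 11 reads in the knockdown and 1 in the control (12.2-fold, 1.77 to 524). Transib1 thus reached the minimum only through the knockdown library, where it was high. For INE-1, a short nonautonomous repeat, 12 and 3 reads were counted (fold 4.43, 1.20 to 24.5). With the pseudocount its log2 ratio was 1.84, so it missed the 4-fold rule. Neither Transib1 nor INE-1 had an interval above 1 after scaling to all transposon reads. The short repeat DNAREP1, with many more reads, had a fold of 0.932 (0.769 to 1.13). The P-element, which causes the P-M type of hybrid dysgenesis, had 43 and 54 reads (fold 0.882, 0.577 to 1.34), '1360' had 54 and 51, FB4 had 32 and 42, the S-element had 44 and 62 and DNAREP1 had 202 and 240. Pogo had 139 and 218 reads (fold 0.706, 0.566 to 0.877), but its log2 ratio of -0.50 became 0.08 when libraries were scaled to non-transposon reads. Hobo, an active DNA transposon, had 0 reads in the knockdown and 8 in the control. It was below the read minimum, and the counting interval of its fold had an upper limit of 0.649.

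Of the 124 transposons, 79 had reads in both libraries, 9 in the knockdown alone (14 reads in all), 19 in the control alone (37 reads in all) and 17 in neither. With the exception of hobo, no element seen in 1 library alone had more than 3 reads. At that level the elements with 3 reads in the control alone were Copia1, the X-element, baggins, gypsy2 and transib3, and gypsy5 had 3 reads in the knockdown alone.

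The position at which a read ended was examined next. Direct RNA reads start from the poly(A) tail, so the deposited counts, which sit on scattered single positions, were read as 3' ends of RNAs. Positions are given on the consensus sequence of each element, counted from 1. The ranges compared were chosen after the profiles had been seen, and single positions are among the 3 with most ovary reads in an element. The last 10% of each consensus took 76.6% of transposon counts in the knockdown and 67.9% in the control.

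The 3 abundant retroviruses ended in narrow zones inside the 3' part of the element. In the knockdown 472 of 573 ZAM reads ended between positions 8200 and 8400 of 8435, with 317 of them at position 8309, 126 nt before the end of the consensus. None of the 3 control reads of ZAM fell in that zone. They ended at 880, 4652 and 8433. In the knockdown 323 of 367 gypsy reads ended between 7200 and 7300 of 7469, and 4 of 5 did so in the control. For springer the range 7200 to 7400 of 7546 took 349 of 383 knockdown reads and 11 of 15 control reads, with 118 and 6 at position 7340. Most gypsy and springer reads of the control thus ended in these zones too, with few control reads behind both. Ends of springer outside the first 20% and the last 30% of the element numbered 5 of 383 in the knockdown (1.31%, 0.425 to 3.02) and 3 of 15 in the control (interval 4.33% to 48.1%).

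In the mdg1 group '412' and mdg1 had many reads that ended far upstream, and Stalker did not. Of the Stalker reads 25 of 26 in the knockdown and 3 of 4 in the control had their end in the last 30% of the consensus. The numbers were 17 of 24 and 1 of 2 for Tabor, and 256 of 317 and 37 of 49 for blood. For '412' the ends between 1400 and 1500 of 7567 numbered 290 of 910 in the knockdown (31.9%, 28.8 to 35.01) and 156 of 256 in the control (60.9%, 54.7 to 67.0). Ends in the last 100 nt numbered 376 (41.3%, 38.1 to 44.6) and 13 (5.08%, 2.73 to 8.53). The scaled fold was thus 2.06 (1.69 to 2.52) for the upstream ends and 32.0 (18.5 to 60.7) for the ends at the 3' border. With scaling to total transposon reads, which lowers log2 ratios by 1.26, the upstream ends would not be higher. At single positions, 253 knockdown reads and 8 control reads of '412' ended at 7522, and 133 and 63 at 1452.

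In mdg1 51 of 131 knockdown reads and 6 of 10 control reads ended between 1200 and 1400 of 7480, and 46 and 2 in the last 100 nt. Both sets were more numerous in the knockdown, 9.41-fold (4.04 to 26.8) and 25.5-fold (6.66 to 217), and their intervals overlap. In blood the folds of both kinds of end had overlapping intervals. Ends between 1600 and 1700 of 7410 numbered 47 and 10 (5.20-fold, 2.59 to 11.5), and those in the last 100 nt numbered 155 and 26 (6.60-fold, 4.34 to 10.4). Stalker2 gave 50 knockdown reads and 0 control reads in the last 100 of its 7672 nt, and 10 and 3 between 1300 and 1700. Among the 30 elements with at least 10 reads in both libraries, '412' was the only one whose share of ends in the last 30% of the element had separate intervals.

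**Figure D4:**
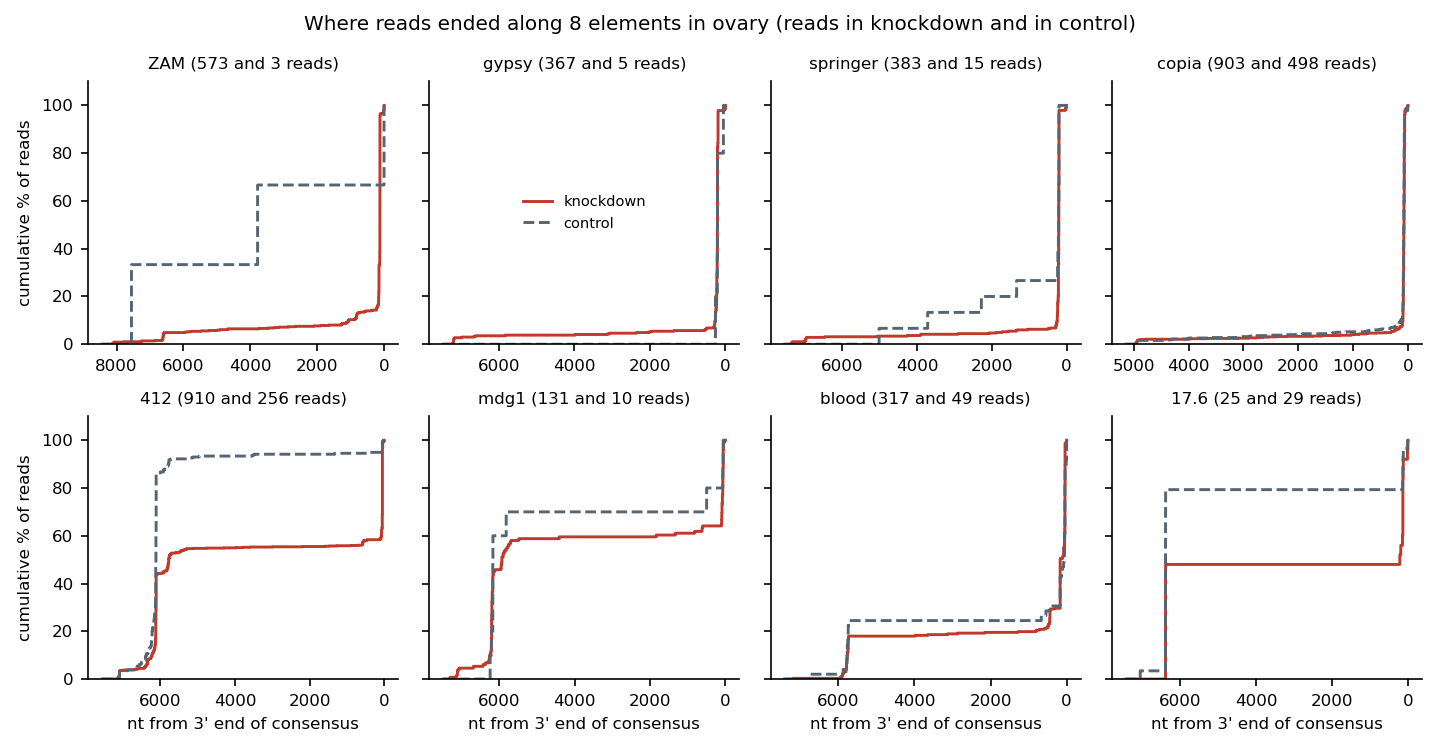
Cumulative percentage of reads (vertical axis) that ended up to a given distance from the 3' end of the consensus (horizontal axis, nt, 5' end at the left) for 8 elements, with vreteno knockdown ovaries as solid red lines and control ovaries as dashed grey lines; titles give reads in knockdown and in control. ZAM, gypsy, springer and copia show a single step near the 3' end in the knockdown, while '412', mdg1, blood and '17.6' show a second step far upstream.

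Upstream ends were also found in elements whose fold interval spanned 1. Of the '17.6' reads, 12 of 25 in the knockdown and 22 of 29 in the control ended between 1000 and 1100 of 7439, and 11 and 5 ended between 7200 and 7400. For the S-element 34 of 44 and 57 of 62 reads ended in the first 200 of 1736 nt. For '1360' 33 of 54 and 34 of 51 reads ended in the first 20% of the element. Burdock had 24 of 54 and 39 of 71 reads between 200 and 600 of 6411. Its ends at 248, 254 and 258 had the same spacing as its ends at 6384, 6390 and 6394, near the 3' border. How a read that matches both borders of an element was placed is unknown. Whether some of these upstream ends repeat the 3' ones was not tested. The files carry no strand, so an antisense RNA that ends near the 5' border cannot be told apart from a short sense RNA. Doc and pogo had their leading end at the same position in both libraries, with overlapping intervals of its share. Doc ended at 4713 of 4725 in 40 of 170 knockdown reads and 38 of 176 control reads, and pogo ended at 2118 of 2121 in 37 of 139 and 64 of 218. DNAREP1 ended at 587 of 594 in 53 of 202 and 67 of 240, and at 563 in 51 and 67.

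End positions were also compared with those in the ovarian somatic cell line (OSC), a culture of follicle-type cells that was treated with siRNA against *piwi* or GFP. The leading end of copia, at 5076 of 5143, took 21.8% of knockdown reads (19.2 to 24.7) and 21.3% of control reads (17.8 to 25.1) in ovary, and 24.2% and 25.6% in siPIWI and siGFP OSCs. The leading end of blood was not shared in this way. Blood ended at 7240, 170 nt before the end of the consensus, in 66 of 317 knockdown reads (20.8%, 16.5 to 25.7) and 6 of 49 control reads (12.2%, 4.63 to 24.8). In OSCs 1 of 3759 siPIWI reads and 0 of 308 siGFP reads of blood ended there (upper limits 0.148% and 1.19%). At position 7365 of blood the shares had overlapping intervals, at 17.4% and 20.4% in knockdown and control ovaries and 14.2% and 14.9% in siPIWI and siGFP OSCs. The end of blood at 7240 was thus frequent in both ovary libraries and at or near 0 in both OSC libraries. Blood was not alone in such a difference. Pogo ended at 2118 in 26.6% and 29.4% of knockdown and control ovary reads, and in 7.69% and 0.833% of siPIWI and siGFP OSC reads. The leading end of Doc, at 4713, took 23.5% and 21.6% in ovary and 20.9% and 26.7% in OSCs. Its next end, at 4708, took 19.4% and 14.8% in ovary, but 1 of 86 siPIWI reads and 1 of 15 siGFP reads. For '412' the end at 7522 took 27.8% in knockdown ovaries and 28.9% in siPIWI OSCs. Its end at 1452 took 14.6% (12.4 to 17.1) and 5.79% (5.15 to 6.49) there.

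**Figure D5:**
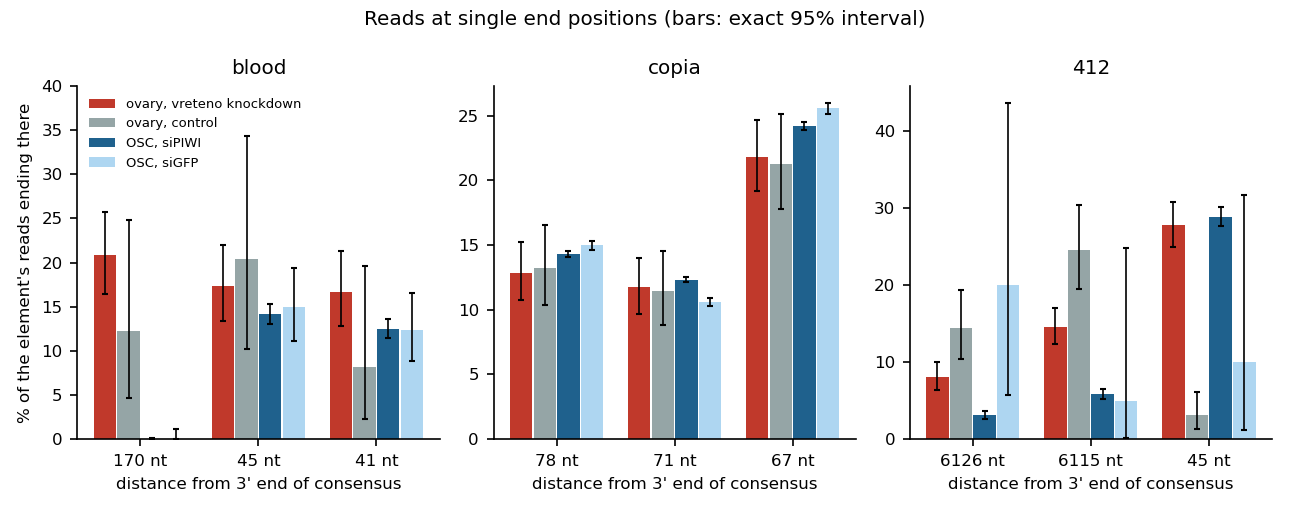
Percentage of an element's reads that ended at the 3 positions with most ovary reads (given as distance in nt from the 3' end of the consensus) in blood, copia and '412', in vreteno knockdown and control ovaries (red and grey) and in siPIWI and siGFP OSCs (dark and light blue); error bars are exact 95% intervals. Blood reads that ended 170 nt before the end made up 20.8% and 12.2% in the ovary libraries and were close to 0 in both OSC libraries.

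The piwi knockdown in OSCs gave higher reads of ZAM, gypsy, springer, '412' and blood too. Copia, also among the elements with the largest ovary excess, was nearly level in OSCs, at a fold of 1.05 (1.04 to 1.06) against 2.01 in ovary. ZAM was 211-fold higher in ovary with 573 and 3 reads, and 3.62-fold higher in OSCs (2.17 to 6.41) with 122 siPIWI and 17 siGFP reads. The log2 fold in OSCs minus that in ovary was -5.68 (-7.36 to -4.01). For springer this difference was -4.01 (-4.75 to -3.28) and for gypsy -2.28 (-3.51 to -1.06). For '412' it ran the other way, at 4.92 (4.26 to 5.58), and for blood it was -0.21 (-0.67 to 0.25). For copia it was -0.94 (-1.10 to -0.78). These are approximate normal intervals on counts with 0.5 added. They cover counting error only and leave out the scaling, and the pairs differ in the gene knocked down as well as in the cells. Control levels differed as well, out of 2382 transposon reads in control ovaries and 57045 in siGFP OSCs. Springer had 15 and 9220 reads there, gypsy 5 and 377, '412' 256 and 20 and blood 49 and 308. How far the differences in fold follow these control levels was not tested.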

How the data were processed

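For each of 4 samples the authors deposited whole-number counts at 672432 positions of 150 repeat sequences, 1 library a group; the unit is a count without normalization, per the file headers and the values. Alignment used minimap2, per the submitters' processing notes, whose version is not given in the sources used here. How multi-mapping reads were counted is likewise unknown, and intervals take each count as 1 independent read. RNA was extracted with TRIzol, enriched on oligo(dT) beads and sequenced with a direct RNA kit that included reverse transcription, per the labels' protocols. Reads were summed per transposon with Python 3.11.15, pandas 2.3.3 and scipy 1.17.1 and checked on simulated counts. Folds have exact conditional intervals, and shares exact Clopper-Pearson intervals, at 95%. An element without a read in a library was given a limit of 3 reads, and a share of 0 within an element the exact upper limit. Intervals and limits cover counting error only. The precision of the ovary values is set by 5156 and 2382 reads.

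The members and lists were chosen with earlier results of these data known. Of 141 names in 8 lists, drawn up from general knowledge, 117 matched the files, and 7 transposons are in no list. The lists do not show that each copy has an intact env gene. Named were all members of the gypsy and mdg1 groups, members of other lists with at least 10 reads, the 10 with most reads in each library and those with 0 reads in 1 library and at least 3 in the other. Ends were described for elements with at least 50 knockdown reads, and for a few others chosen after their values were seen. Other scalings, pseudocounts, read minimums and thresholds were tried. OSC counts were scaled in the same way (ratio 1.99 over 54 transposons). No genome coordinate was used for the transposons, and no consensus sequence was used here.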

Additional observations from a re-analysis of the deposited data

Results flagged for a closer look

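Chimpo, a Ty3/gypsy element, had counting intervals on opposite sides of 1 in the ovary and the OSC pair. It had 9 reads in vreteno knockdown ovaries and 1 in control ovaries, a fold of 9.96 (1.38 to 437), and 43 reads each in siPIWI and siGFP OSCs, a fold of 0.504 (0.322 to 0.787). The OSC value rests on the scaling, since the reads were equal. The difference between the pairs was not tested across samples, as each group has 1 library, and Chimpo was below the read minimum in ovary.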

How the results depend on the processing

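No paired analysis was possible because each group has 1 library. The 12 elements at least 4-fold higher became 7 with scaling to total transposon reads (without Quasimodo, Stalker, Transib1, blood and gypsy6), 7 with a pseudocount of 10 reads, 7 at the highest single position alone, 7 at an 8-fold threshold, and 19 at a 2-fold threshold or when the counting interval decided. Under the other scalings, pseudocounts, minimums and end regions the number was 10 to 16. In all 14 alternatives ZAM, gypsy, springer, Stalker2 and HMS-Beagle2 stayed in. The 0 lower elements became 1 with total scaling (G4), 1 with a minimum of 5 reads (hobo), 1 by the counting interval (pogo) and 6 with no minimum. Against the median scaling, log2 ratios moved by -1.26 with total scaling, 0.58 with non-transposon reads, 0.09 with the non-LTR and DNA lists and -0.15 with raw reads. Without copia in the denominator, the gypsy-group share was 34.6% in the knockdown and 5.41% in the control, and the mdg1-group share 34.9% and 17.2%. Over reads ending in the last 30% of the element, these shares were 33.4% and 3.19%, and 20.1% and 3.48%. No called element changed direction. Of the values of single elements, 49 of 472 log2 ratios left the counting interval. Depth limits elements with few reads: a control count of 3 leaves folds uncertain by over 10-fold.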
